A study of Sus scrofa with 40 samples.

Results

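HHATL (hedgehog acyltransferase-like) was described through the probes that carry its symbol, BF191834.1_389 and BG383301.1_216, which are 2 of the 15198 gene probes of a pig muscle array. They were chosen by measured values, since both were known to differ between breeds and to give differences of unequal size. The difference between breeds and the gap between the probes in that difference are therefore described with no test. Housing system, its interaction with breed and the agreement of the probes from pig to pig were not used for the choice and were tested.

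HHATL belongs to the membrane-bound O-acyltransferase family and is related to HHAT, the enzyme of the endoplasmic reticulum that attaches palmitate to hedgehog proteins. It is known as a gene of striated muscle, that is, of heart and skeletal muscle, and its protein lies in the membranes of the sarcoplasmic reticulum, which store and release calcium. Unlike HHAT it is not known as an active hedgehog acyltransferase. In the RefSeq gene table of assembly Sscrofa 11.1, HHATL had 7 transcripts and lay between KLHL40, whose annotated span overlaps it, and CCDC13, and neither neighbour had a named probe here.

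The RNA came from the Longissimus muscle (LM) of 40 castrated male pigs, 20 Basque (B) and 20 Large White (LW), slaughtered at a live weight of about 145 kg. In each breed, 10 pigs had been kept in a conventional system (C, indoors on slats) and 10 in an alternative system (A, bedding and an outdoor area). According to the study, B pigs were older than LW pigs at that weight, and pigs of a given weight were offered equal feed whatever their breed's appetite, so that a breed difference cannot be told apart from one of age or of feed intake relative to appetite. The RNA of each pig was labelled with Cy3 and hybridised with a Cy5-labelled pool of all 40 pigs, and values are log2 ratios of pig to pool after subtraction of the median of each array. Of the lists of marker genes of muscle fibres, 3 of 18 genes had a named probe (ACTA1, MYH1 and NEB), and each was well above background on 40 of 40 arrays. According to the methods, each litter gave 2 pigs, which were assigned to either housing system. Litters are not in the labels, so that the housing test could not be paired by litter. P values treat the pigs as independent.

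A pair of arrays stood apart. Before centring, the median log2 ratio was -0.09 in B alternative 15 and -1.54 in LW alternative 18, whereas it lay between -1.13 and -0.59 on the other arrays. Of 780 pairs of arrays, 2 had a correlation below -0.3 over the tested probes, the lowest being -0.34, and the direction was kept because the methods state the dyes. Values with and without these arrays are given below.

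The probes are different stretches of 60 bases, shown here because both stand for one gene and share no more than 6 bases in a row. The capitals mark the forward primer that the study used for HHATL in RT-PCR.
BF191834.1_389: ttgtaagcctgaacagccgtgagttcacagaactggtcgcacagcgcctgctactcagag
BG383301.1_216: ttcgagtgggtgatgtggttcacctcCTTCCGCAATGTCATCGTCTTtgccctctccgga
The 21 bases of that primer fill bases 27 to 47 of BG383301.1_216, counted from its 5′ end, on the same strand. Among the 28 primers of the study, it was the only one found whole in any of the 15198 probes on either strand. No primer lay in BF191834.1_389, whose name as HHATL rests on the probe list of the study alone. The study reported that HHATL was higher in LW pigs by RT-PCR too, in the RNA used for the arrays, with a similar fold change. The RT-PCR values were not examined here. Both probes had a GC content of 55%. On the printed strand, 1 of the 3 reading frames of BF191834.1_389 and 2 of the 3 of BG383301.1_216 held no stop codon. The longest stretch that another probe shared on the same strand was 11 bases for BF191834.1_389 and 12 bases for BG383301.1_216, and on the opposite strand it was 13 and 16 bases. Their place in the transcripts was not analysed here.

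All 80 HHATL spots were well above background in Cy3, and 0 were saturated or marked as outliers. BF191834.1_389 gave a median Cy3 intensity of 1643 in B pigs, from 787 to 2493, and of 2919 in LW pigs, from 2212 to 3838. Its signal was at the median 38.4 times the local background in B pigs and 66.5 times in LW pigs. For BG383301.1_216 the median Cy3 intensity was 174 in B pigs, from 132 to 228, and 237 in LW pigs, from 208 to 310. This signal was only 4.14 times the local background in B pigs and 5.67 times in LW pigs, so that BG383301.1_216 was read much closer to its background. In the Cy5 channel, which holds the pool on every array, BF191834.1_389 had 4493 ± 718 on the arrays of B pigs and 4833 ± 542 on those of LW pigs (SD, n = 20 each). For BG383301.1_216 these intensities were 336 ± 40.6 and 359 ± 43.5. In both probes the pool thus differed between the arrays of the breeds by less than 1 SD, whereas the Cy3 signal of B pigs lay lower than that of LW pigs in all but B alternative 19.

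HHATL RNA was lower in B than in LW muscle on either probe. On BF191834.1_389, the log2 ratio of B pigs had a lowest value of -1.28, a median of -0.66 and a highest value of 0.18, and that of LW pigs had -0.31, 0.21 and 0.81. The means were -0.67 ± 0.27 and 0.18 ± 0.25 (SD, n = 20 each). The B pigs lay below every LW pig except for B alternative 19, which was higher than 9 of the 20 LW pigs (4 with processed signals, 4 in the series matrix and 3 by Cy3 intensity). The next B pig was at -0.48. The fitted difference was -0.83 (SE 0.081), that is, 1.77-fold more in LW pigs. On BG383301.1_216, B pigs ranged from -0.27 to 0.34 with a median of -0.04, and LW pigs from -0.01 to 0.68 with a median of 0.43. The means were -0.04 ± 0.14 and 0.36 ± 0.19 (SD, n = 20 each), and 7 B pigs lay above the lowest LW pig. The fitted difference was -0.40 (SE 0.042), or 1.32-fold, in the main processing (normexp, offset 50). For this faint probe it was -0.56 (1.48-fold) with no offset, -0.62 (1.53-fold) with processed signals and -0.60 (1.51-fold) in the series matrix. In the other alternatives it lay between -0.46 and -0.40. Less HHATL RNA per fibre and fewer fibres that express it cannot be told apart in RNA of whole muscle. The model of the main processing called 2593 of the 12222 tested probes for breed (adjusted P value under 0.05, 21.2%). Nothing is read from this about HHATL, because this contrast chose it.

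**Figure D1:**
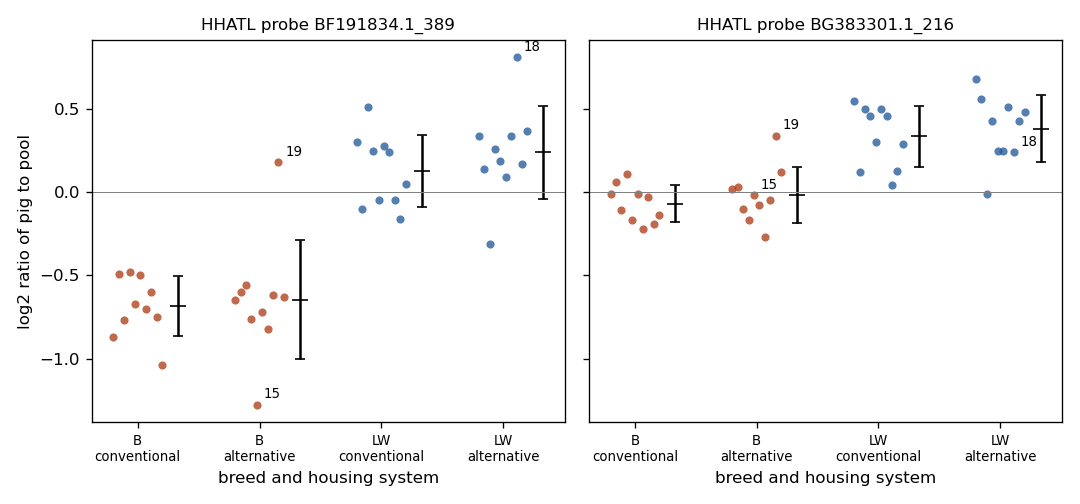
Log2 ratio of pig to pool for each HHATL probe (vertical axis) in the 4 groups of 10 pigs, with 1 point per pig and the mean and SD as black bars. On BF191834.1_389, B alternative 19 (0.18) lies among LW pigs and the other B pigs lie at -0.48 or lower, while on BG383301.1_216 the breeds are closer together.

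In both housing systems the breeds kept the same order. For BF191834.1_389 the group means rose from -0.69 ± 0.18 in B conventional and -0.65 ± 0.35 in B alternative to 0.13 ± 0.22 in LW conventional and 0.24 ± 0.28 in LW alternative (SD, n = 10 each). Those for BG383301.1_216 were -0.07 ± 0.11, -0.02 ± 0.17, 0.33 ± 0.19 and 0.38 ± 0.20 in the same order. Neighbours of one breed differed by less than 1 SD on each probe. The fitted difference between breeds was -0.77 (SE 0.12) in C and -0.88 (SE 0.12) in A on BF191834.1_389, and -0.37 (SE 0.060) and -0.44 (SE 0.060) on BG383301.1_216.

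Each of the 7 slides held pigs of both breeds. On BF191834.1_389, B pigs were lower on average in 6 slides, by differences of -0.57 to -1.08, and no B pig of these slides reached a LW pig of the same slide. The exception was slide 2, which held only B alternative 19 and LW alternative 12, at 0.18 and 0.14. On BG383301.1_216, B pigs were lower in 7 of 7 slides, by -0.22 to -0.57, and the breeds overlapped within slide 6 alone. By scan day, of which there were 3, the difference was -0.99, -0.75 and -0.94 on the first probe and -0.57, -0.31 and -0.47 on the second.

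Housing system was the question that the choice of the probes had left free. The fitted difference of A minus C pigs was 0.05 on BF191834.1_389 (SE 0.084, 95% interval -0.12 to 0.23, P = 0.522) and 0.04 on BG383301.1_216 (SE 0.044, 95% interval -0.05 to 0.13, P = 0.415). After BH adjustment in limma over the 12222 tested probes, the P value was 1 on each. Of all tested probes, 0 passed for housing system (0%), with 337 at an unadjusted P value under 0.05, and 0 passed for the interaction (0%), with 324. No second tool was run. Within breeds, A minus C was 0.00 (SE 0.12, P = 0.984) in B pigs and 0.11 (SE 0.12, P = 0.357) in LW pigs on BF191834.1_389, and 0.00 (SE 0.060, P = 0.995) and 0.07 (SE 0.062, P = 0.25) on BG383301.1_216. On BF191834.1_389 these values were -0.06 (SE 0.11, P = 0.605) and 0.17 (SE 0.11, P = 0.135) without B alternative 19, and 0.05 (SE 0.095, P = 0.57) and 0.05 (SE 0.097, P = 0.611) without B alternative 15 and LW alternative 18. The interaction was -0.11 (SE 0.16, P = 0.491) and -0.07 (SE 0.085, P = 0.397), with an adjusted P value of 0.968 for both. Without B alternative 19, left out after its values were seen, the interaction on BF191834.1_389 was -0.22 (SE 0.15, 95% interval -0.53 to 0.09, P = 0.152) and that on BG383301.1_216 was -0.10 (SE 0.087, P = 0.265). Over all 40 pigs its intervals reached from -0.45 to 0.22 and from -0.25 to 0.10, so that they held values of either sign on both probes. Within the 6 slides that held both systems, plain A minus C means on BF191834.1_389 ranged from -0.29 (slide 3) to 0.46 (slide 5). They were above 0 in 3 of these slides. These means pool the breeds, whose shares differed between the systems on slides 3 and 5. No housing difference is therefore read from them.

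The values of the probes were correlated from pig to pig within each breed. Both are read on the same array against the same pool and are centred together, and in the residuals of both breeds together 1367 of the other 12221 tested probes had r above 0.5 with BF191834.1_389, among which BG383301.1_216 was at rank 372 (r = 0.644). With BG383301.1_216, 183 probes had r above 0.5, and BF191834.1_389 was at rank 12. These ranks include B alternative 15 and LW alternative 18. Without these arrays each HHATL probe was at rank 2 for the other (r = 0.767). With processed signals on all arrays each was at rank 1 (r = 0.88). The tests below are against r of 0, and whether this pair differs from other pairs was not tested. After breed, housing system, their interaction and slide had been fitted out, Pearson's r between them was 0.60 over B pigs (P = 0.0051, adjusted 0.0051) and 0.67 over LW pigs (P = 0.001, adjusted 0.0014), each by a two-sided permutation test with n = 20. Spearman's rho was 0.77 (P = 0.00018, adjusted 0.00036) and 0.80 (P = 6e-05, adjusted 0.00024), the adjustment covering these 4 values. Without the pigs farthest from the median of BF191834.1_389, which were B alternative 15 and 19 and LW alternative 13 and 18, r was 0.67 over 18 B pigs (P = 0.0023) and 0.74 over 18 LW pigs (P = 0.00041). Since the breeds lie apart by the choice of the probes, no correlation over all pigs is given. With Agilent's processed signals r was higher, 0.83 over B and 0.92 over LW pigs (both n = 20, P = 2e-05 and 1e-05, the latter the smallest value that the permutations can give).

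The step between breeds was not the same on the probes. Within an array, BF191834.1_389 minus BG383301.1_216 was -0.62 ± 0.21 in B pigs and -0.17 ± 0.20 in LW pigs (SD, n = 20 each), so that its fitted difference between breeds was -0.42 (SE 0.064). In B pigs this value ranged from -1.26 in B alternative 15 to -0.16 in B alternative 19, and in LW pigs from -0.42 in LW alternative 12 to 0.57 in LW alternative 18. It differed between housing systems by 0.02 (SE 0.067, 95% interval -0.12 to 0.15, P = 0.784). The size of the gap differed with the processing. BG383301.1_216 moved more than BF191834.1_389 with processed signals, in the series matrix, with no offset and with loess. In the other alternatives BF191834.1_389 moved as much or more. With array weights, for example, the breed difference was -0.76 on BF191834.1_389 and -0.40 on BG383301.1_216. With processed signals the breed difference was -0.88 (SE 0.071) on BF191834.1_389 and -0.62 (SE 0.062) on BG383301.1_216, and the gap was -0.26 (SE 0.038). With normexp and no offset, an alternative added after the data were seen, these values were -0.87 (SE 0.089), -0.56 (SE 0.057) and -0.31 (SE 0.071). In 12 of 12 alternatives the gap kept its sign, between -0.46 and -0.26. Without B alternative 15 and LW alternative 18 it was -0.37 (SE 0.045).

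**Figure D2:**
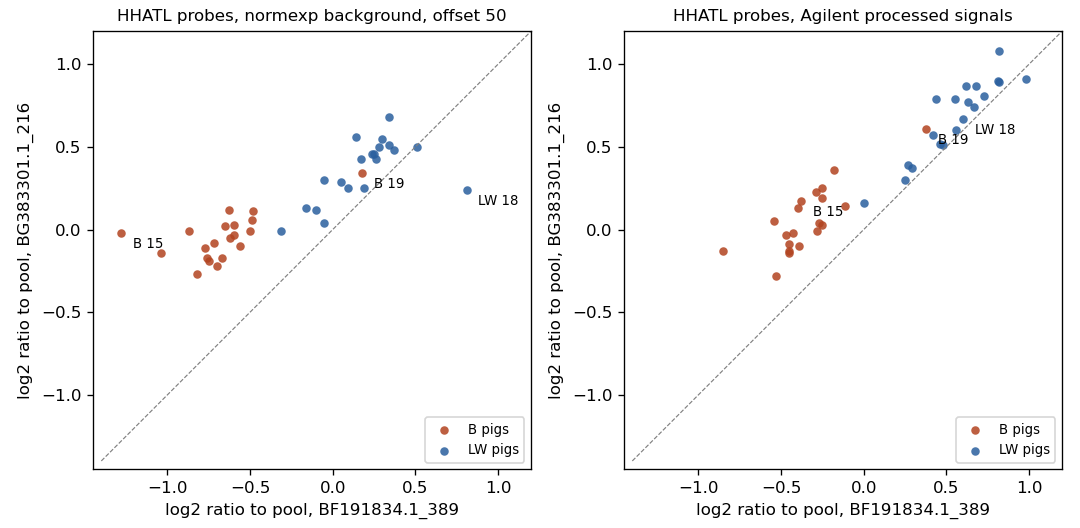
Log2 ratio to the pool on BG383301.1_216 (vertical) against BF191834.1_389 (horizontal), 1 point per pig, with equal values on the dashed line. B 15 and LW 18 leave the band of the other pigs with normexp (left, -1.28 and 0.81 on the horizontal axis) and lie within it with Agilent's processed signals (right, -0.38 and 0.60), whereas B 19 lies among LW pigs in both.

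**Figure D3:**
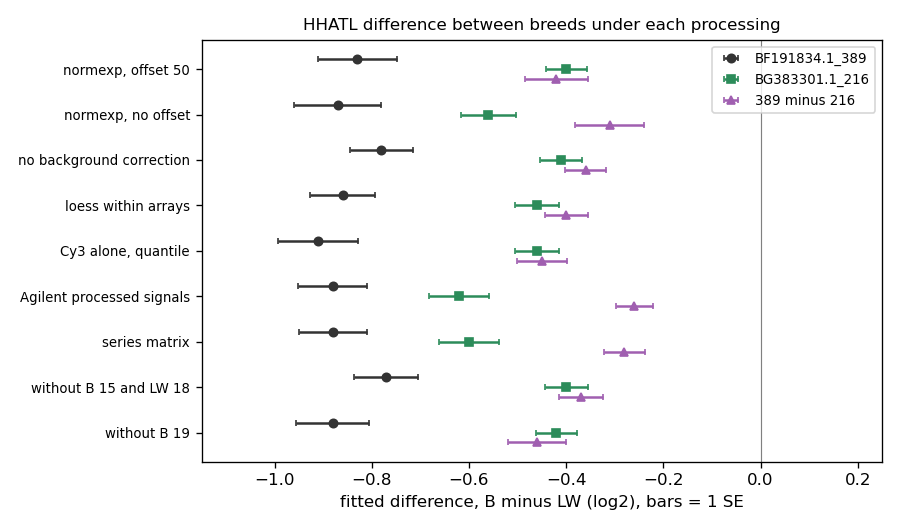
Fitted difference of B minus LW pigs (log2, horizontal) on each HHATL probe and in their within-array difference, with bars of 1 SE, under 9 ways of processing the 40 arrays or leaving arrays out. BF191834.1_389 lies between -0.91 and -0.77, and BG383301.1_216 between -0.62 and -0.40.

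Single pigs shaped the spread of HHATL. B alternative 19 had 0.18 on BF191834.1_389, compared with -0.71 ± 0.19 in the other 19 B pigs, and 0.34 on BG383301.1_216, compared with -0.06 ± 0.11. These values were 4.56 and 3.68 SD above the other B pigs and ranked 3 and 7 among 12222 tested probes in that pig. With processed signals it again had LW-like values, 0.38 and 0.61, beside LW means of 0.55 and 0.68. Its Cy3 intensities were 2493 and 228, beside means of 1608 and 175 in B pigs and 2916 and 242 in LW pigs. Its Cy5 intensities, 3352 and 275, were the lowest of its group on both probes. So were those of LW alternative 12 on the same slide (3426 and 245). On a scale of the main log2 ratios, 0 is the mean of the other B pigs and 1 the mean of LW pigs. There B alternative 19 was at 0.99 and 0.96 on the HHATL probes. Over the other 2591 probes called between breeds, which were called with this pig among the B pigs, its median position was -0.08. Of these probes, 9.19% were at 0.9 or higher. Over the B pigs this share ranged from 4.63% to 23.8%. The highest share was that of B alternative 15, whose array stood apart, and the next was 18.9% in B conventional 5. These positions are a description and were not tested. Without this pig, left out after its values were seen, the difference between breeds was -0.88 (SE 0.075) on BF191834.1_389 and -0.42 (SE 0.043) on BG383301.1_216. Slide 2 then held 1 array, which the slide term absorbs.

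B alternative 15 and LW alternative 18 stood out in another way. B alternative 15 had the lowest value of all pigs on BF191834.1_389 (-1.28) but -0.02 on BG383301.1_216, near the mean of its group. LW alternative 18 had the highest value on the first probe (0.81) and 0.24 on the second. With processed signals their values on BF191834.1_389 were -0.38 and 0.60, inside the range of their groups. Without both arrays, the difference between breeds was -0.77 (SE 0.066) on that probe and -0.40 (SE 0.044) on the other.

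The probes most like each HHATL probe were taken by Pearson's r in the residuals of the model over the arrays with a value for both probes (40, or 39 for BM481877.1_1003), as a description. For BG383301.1_216 the 10 closest had r from 0.729 to 0.647, and 4 of them had a symbol. These were AK1 (r = 0.705), the adenylate kinase of muscle that interconverts adenine nucleotides, GADL1 on 2 probes (0.676 and 0.66), an enzyme that forms beta-alanine from aspartate, and DUPD1 (0.671), a dual-specificity phosphatase of muscle. The closest probe, BX922596.1_57 (r = 0.729), had no symbol, but its name gives the same clone as the DUPD1 probe, BX922596.1_393. The fitted differences between breeds were -0.30 for AK1, -0.80 and -0.87 for GADL1 and -0.35 for DUPD1, whose signs are fixed because symbols were at hand only for probes lower in B pigs. Of the 10 probes, 7 were lower in B pigs, among them the 4 named probes with their fixed signs. The 3 others, all unnamed, had 0.24, 0.24 and 0.03. The share of all tested probes lower in B pigs was not counted, so that no shared direction is read from this. For BF191834.1_389 the 10 closest probes had r from 0.849 to 0.812 and 0 had a symbol, and BM481877.1_1003 came first. The lists of the closest probes shared 0 members. The lists differed with the arrays and with the processing. Without B alternative 15 and LW alternative 18 the r between the HHATL probes was 0.767 and each was at rank 2 for the other, and 13 of the 20 listed entries stayed. With processed signals each HHATL probe was the closest of all to the other (r = 0.88), and 7 of the 20 entries stayed. Of these, 5 were for BF191834.1_389 and 2 for BG383301.1_216. The symbols closest to BG383301.1_216 were then DUPD1 and ARMCX6, without AK1 and GADL1. Without B alternative 15 and LW alternative 18 they were AK1, ARMCX6, GADL1 and DUPD1.

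Symbols were available here only for 683 probes of 598 genes, all on the study's list of probes lower in B pigs, so that counts over gene lists are selected on the breed contrast. The study's list of probes higher in B pigs was not used for names, because its probe names and symbols do not belong together. Of 37 pairs of its probes from one clone 0 had the same symbol, compared with 40 of 40 pairs in the list of probes lower in B pigs. Of the hedgehog pathway 0 of 21 genes had a named probe, and of a short list of muscle membrane genes 0 of 4. Of the membrane-bound O-acyltransferases other than HHATL, 0 of 10 had one. Of 23 genes of the sarcoplasmic reticulum and calcium release, 3 had one, and 0 of their 4 probes passed for housing system or for the interaction. ATP2A1, the calcium pump of fast fibres, had a breed difference of -0.28 (SE 0.10) and residual r of 0.50 with BF191834.1_389 and 0.18 with BG383301.1_216. CASQ2, a calsequestrin that binds calcium in the store, had -0.43 (SE 0.11) and r of 0.13 and 0.23. JPH1, a junctophilin that ties the store to the T-tubule, had -0.39 (SE 0.068) and -0.09 (SE 0.045) on 2 probes, with r between -0.30 and -0.07. In B alternative 19 these probes were at -0.21, -0.35, -0.43 and -0.12.

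Markers of cells and fibre types were named as sparsely. Fast fibres had 2 of 10 genes (ATP2A1 and MYH1) and slow fibres 1 of 8 (CASQ2). MYH1, a fast myosin heavy chain, had -0.66 (SE 0.15) between breeds and r of 0.16 and 0.047 with the HHATL probes. ACTA1, skeletal actin, had -0.29 (SE 0.16) with r of 0.41 and 0.43, and NEB, the thin filament ruler nebulin, -0.22 (SE 0.11) with r of 0.52 and 0.19. Of 6 fibroblast genes, 2 had a named probe. The matrix genes COL1A2, on 2 probes, and DCN had -0.50 (SE 0.17), -0.18 (SE 0.071) and -0.17 (SE 0.097), with r of 0.25 to 0.44 with BF191834.1_389 and 0.39 to 0.50 with BG383301.1_216. Their part in the HHATL difference was not tested. Of the markers of adipocytes (8 genes), endothelium (5), macrophages and leukocytes (6), blood (2), satellite cells (3) and heart-type muscle (5), 0 had a named probe.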

How the data were processed

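The authors deposited the Agilent Feature Extraction output of each of the 40 arrays, that is, intensity values of each spot and its background before normalization, together with the software's processed intensity values after background subtraction and dye normalization. A series matrix of log2 values was deposited by the authors as well. Their correlation with the processed log2 ratios of an array was 0.994 at the median (0.684 in B alternative 15 and 0.779 in LW alternative 18), ran as pig over pool and had column medians between -0.015 and 0.026. The study's methods name filters of spots on intensity, uniformity, saturation and outliers, and a further filter on variability, which were not repeated here.

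Here normexp (offset 50) was applied to all spots in limma 3.58.1 under R 4.3.3, log2(Cy3/Cy5) was taken and the median of the gene probes of each array subtracted. Values of control spots and of outlier spots were not used. A probe was tested when Cy3 was well above background in 10 or more of the 20 pigs of a breed (12222, both HHATL probes included). The model, fitted with lmFit and eBayes, held breed, housing system, the interaction of these and slide, with BH adjustment and a threshold of 0.05. The within-array difference of the probes was fitted as 1 further row. Correlations had 100000 permutations in numpy 2.4.6. The programs were tested on simulated data.

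The scanner output names no gene. Symbols came from the probe column of the study's list of probes lower in B pigs. Named genes are the HHATL probes, the 10 probes most like each and members of lists of pathways and cell markers, with few unnamed probes given. The members and lists were chosen with earlier results of these data known. Alternatives covered background, normalization, the Cy3 channel alone, the series matrix, the filter, slide, scan day, array weights, the replicate number as a block and arrays left out. Arrays have no sequencing depth, and precision is limited by how many pigs there are and by how far the signal exceeds background. No arrays held identical values (0 of 780 pairs), and 0 columns could not be mapped to a pig.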

Additional observations from a re-analysis of the deposited data

Results flagged for a closer look

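Of 12 sets of 10 pigs (the 4 groups on each HHATL probe and in the difference between the probes), 2 had an extreme pig whose gap to its nearest neighbour, divided by the range of the group, was above the critical value of Dixon's gap test. Chance flags about 1 set in 20. B alternative 19 was the highest of its group on BF191834.1_389 (0.18), and the next pig was at -0.56, a gap of 0.507 of the range. On BG383301.1_216 the same pig was also the highest (0.34), with a gap of 0.361. LW alternative 18 was the highest of its group in the difference between the HHATL probes (0.57), and the next pig was at -0.06, a gap of 0.636 of the range. With processed signals that difference was -0.07 in LW alternative 18. In the same measure B alternative 15 was the lowest of its group (-1.26, the next pig at -0.75), with a gap of 0.464, just under the critical value.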

How the results depend on the processing

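Over 13 results and 146 values under alternatives, 133 kept the direction and the side of the threshold or, with no test, moved by less than 1 SD, 8 changed sign and 5 moved further, 3 of these being counts of the probes most like HHATL. The difference between breeds lay between -0.91 and -0.76 on BF191834.1_389 over 12 alternatives. On BG383301.1_216 it lay between -0.62 and -0.40, and it moved by more than the spread between pigs with Agilent's processed signals (-0.62) and in the series matrix (-0.60). The housing difference lay between 0.03 and 0.09 on each probe over 12 alternatives. Its unadjusted limma P value was 0.22 or higher on BF191834.1_389 and 0.074 or higher on BG383301.1_216. Values near 0 changed sign without passing any test. The interaction on BF191834.1_389 lay between -0.22 (without B alternative 19) and 0.09 over 12 alternatives. It was 0.02 with loess, 0.09 with Cy3 alone, 0.03 in the series matrix and 0.00 without B alternative 15 and LW alternative 18, and on BG383301.1_216 it was 0.02 with Cy3 alone and 0.00 with no slide term. The housing difference between the probes was -0.01 with Cy3 alone and -0.01 with normexp and no offset. The cause of these changes was not tested. For housing system and for the interaction 0 probes were called in 14 of 14 alternatives, with 265 to 681 and 243 to 601 at an unadjusted P value under 0.05. Of the 20 entries of probes most like HHATL, 0 stayed with unadjusted ratios.

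The groups share replicate numbers. Of 20 pairs of B and LW pigs with one number, 3 had a correlation of deviations over 0.1, and 2 B pigs correlated best with their own number. With the replicate number as a block, the breed difference was -0.83 and -0.40, the housing difference 0.06 and 0.04, and 0 probes were called for housing system. Pigs with one number are of different breeds, so that this block is not a pairing by litter. The alternatives with no offset, without a single one of these arrays and, for the probes most like HHATL, without both B alternative 15 and LW alternative 18 (13 of 20 entries stayed) were chosen after seeing the data. Over B pigs r between the probes was 0.56 without B alternative 19 and 0.68 without B alternative 15, and over LW pigs it was 0.78 without LW alternative 18.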
